A study of Mus musculus with 18 samples.

Results

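The nuclear genes of oxidative phosphorylation were examined in cartilage RNA of the anterior cruciate ligament (ACL) rupture model of joint injury in the mouse. A gene was included when it was annotated as protein-coding, lay outside the mitochondrial chromosome and carried a symbol starting with Ndufa, Ndufb, Ndufc, Ndufs, Ndufv, Uqcr, Cox4 to Cox8 or Atp5, or the symbol Sdha, Sdhb, Sdhc or Sdhd. This gave 94 of the 49184 genes in the files, among 21918 protein-coding genes. They comprised 7 core subunits, 29 accessory subunits and 8 assembly factors of complex I, 4 genes of complex II, 8 of complex III, 20 of complex IV, 17 of complex V and 1 regulator of complex V. Cyc1 and Cycs, which also belong to the chain, have symbols outside this rule and are given separately.

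Oxidative phosphorylation is carried out in the inner mitochondrial membrane. Complexes I and II take electrons from NADH and succinate, complex III passes them through cytochrome c to complex IV, which reduces oxygen, and complex V uses the resulting proton gradient to make ATP. Articular cartilage has no blood vessels and its chondrocytes are known to make much of their ATP by glycolysis. Most subunits are encoded in the nucleus and made in all cells, but several subunits of complex IV have separate genes for muscle or for low oxygen.

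Male C57Bl/6J mice, 12 weeks old, had the ACL of the right knee ruptured by a single mechanical load, and cartilage caps of the femoral condyle were taken 1 or 7 days later. Injured (right) and contralateral (left, not loaded) knees gave 3 libraries each at day 1 and at day 7, and knees of naïve mice, labelled day 7, gave 6 libraries, against which day 1 groups were compared as well. The genotype was labelled C57bl6 for all libraries, and each library was a pool of knees, with 2 mice per pool at day 1 and 4 at day 7 by the study's scheme. The series description instead puts the pool size at 4 mice throughout. By the same scheme the naïve libraries hold left and right knees of 6 mice pooled apart, so that they share mice, which the labels do not resolve. The libraries were treated as independent and their replicate numbers, given here in accession order, pair nothing. The p-values therefore measure the spread between these libraries. The libraries held between 16074762 and 41794005 estimated counts (median 25465706), and the 94 genes together took between 69524 and 184337 counts.

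The libraries were labelled as chondrocytes, and the defining chondrocyte genes were present. The 14 chondrocyte markers, of which Col2a1 was the most abundant, summed to between 3787 and 13918 CPM (counts scaled to the library total after TMM normalization), and none was at or under 3 counts in every library. RNA of other cells was present as well. The 11 erythroid markers tested summed to between 17178 and 65719 CPM, led by Hbb-bs, and the 16 skeletal muscle markers to between 3415 and 16802 CPM, led by Myh4. In such bulk samples, fewer cells of a type and less RNA per cell cannot be told apart.

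One library stood apart from the others for these genes. In day 7 contralateral replicate 1, 42.5% of the counts fell on the 10 leading genes. There, 47 of the 91 genes tested lay above all 17 other libraries and 16 lay below them all. The SD over genes of the log2 deviation from the naïve mean was 0.816 in this library and 0.120 to 0.354 in the others. Ndufa5, an accessory subunit of complex I, was at 29.1 CPM in it and at 9.27 and 9.09 CPM in the other day 7 contralateral libraries. Cox7b, a small subunit of complex IV, was at 6.70 CPM against 42.9 and 37.1 CPM. The summed level of the 13 mitochondrially encoded protein genes was 2977 CPM there and 13273 and 12182 CPM in the other day 7 contralateral libraries. Calls, medians and counts of small p-values that use the day 7 contralateral group are therefore given with and without this library.

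The promoters of these genes are known for sites of a few general factors, and such sites are shown here because they are shared across the complexes. RefSeq promoter windows of GRCm38.p6, from 250 bases before to 50 bases after a gene start, were matched by symbol to 76 of the 94 genes. The motif of nuclear respiratory factor 1 (NRF-1), searched on both strands as GCGC followed by any base and then TGCGC, was found in 19 of the 76 genes (25%) and in 5.19% of the 27025 genes with a window. The motif AAGATGGC of YY1, also searched on both strands, was found in 14.5% of the 76 genes and 3.19% of all, and CCGGAAGT, bound by GABP and other ETS factors, in 6.58% and 4.31%. A match describes the letters in a window and is not evidence of binding. For each complex, 1 NRF-1 match is printed with 10 bases on either side, 5′ to 3′ on the strand of the gene and with the motif in capitals. It comes from the gene with the highest level in naïve libraries among those with a match before the RefSeq gene start. No gene of complex III met this. The windows are at chr13:73328479-73328508 for Ndufs6, chr13:74350231-74350260 for Sdha, chr5:115349056-115349085 for Cox6a1 and chr11:115420041-115420070 for Atp5h, all on the minus strand.
Ndufs6 (complex I): cgactgctgtGCGCCTGCGCcggcacttgg
Sdha (complex II): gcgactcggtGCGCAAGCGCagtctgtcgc
Cox6a1 (complex IV): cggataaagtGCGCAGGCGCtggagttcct
Atp5h (complex V): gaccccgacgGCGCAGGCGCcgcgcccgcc
These motifs start 16, 10, 117 and 141 bases before the RefSeq gene start, respectively. In the GENCODE annotation used for the counts, Ndufs6 starts at 73328542 and Sdha at 74350280. By that annotation the printed windows of these genes lie inside the gene. The Cox6a1 and Atp5h motifs have the same letters.

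Levels were compared between genes per length, in TPM (the deposited length-corrected share of a library's transcripts) summed over the transcripts of a gene. Among the groups with more than 1 gene, complex V had the highest median in naïve libraries and the assembly factors of complex I the lowest. Atp5b, the catalytic beta subunit of ATP synthase, had the highest level, 215 ± 19.9 TPM (SD, n = 6), and lay above the next gene, Atp5a1, in all 6 libraries. Atp5a1, the alpha subunit, was at 108 ± 12.4 TPM and Cox4i1, the common form of subunit 4 of complex IV, at 106 ± 8.25 TPM. These 2 neighbours could not be ordered, as Atp5a1 was the higher in 3 of the 6 libraries. Cox4i1 was above Atp5l, a membrane subunit of ATP synthase at 94.6 ± 8.17 TPM, in 5 of 6, and the order of Atp5l, Atp5h and Cox6b1 changed between libraries.

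Among the other complexes, the median over genes was 23.5 TPM for complex I core subunits, 25.3 for complex I accessory subunits, 30.5 for complex II, 49.2 for complex III, 42.8 for complex IV and 56.6 for complex V. The assembly factors of complex I, which are not part of the finished complex, had a median of 3.40 TPM. The leading gene of the core was Ndufv2, an iron-sulfur subunit, at 39.2 ± 4.03 TPM, and that of the accessory subunits was Ndufb9, at 55.9 ± 5.97 TPM. Sdha, the flavoprotein of complex II, was at 38.0 ± 2.73 TPM. Uqcrh, the hinge protein of complex III, was at 70.7 ± 5.98 TPM. Among the lowest levels were those of genes with a restricted expression. Cox4i2, the form of subunit 4 used at low oxygen, was at 1.60 ± 0.262 TPM. Cox7b2 and Cox8c, forms known from testis, were at 3 counts or fewer in every library. These 2 genes and a second gene model that carries the symbol Atp5o failed the filter on low counts, so that 91 of the 94 genes were tested.

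**Figure D1:**
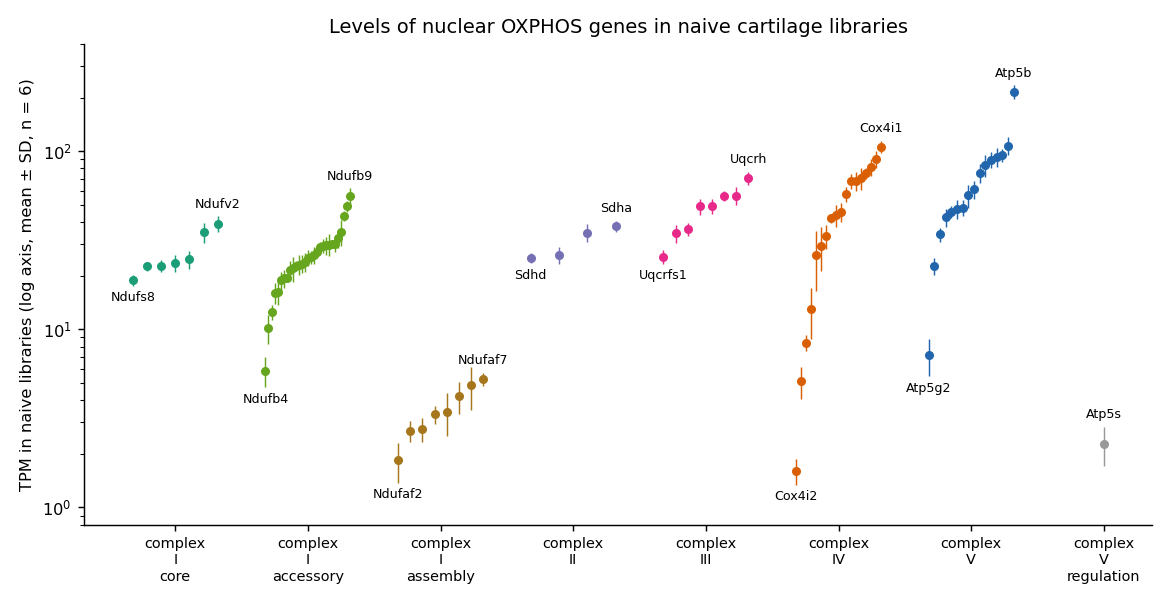
Level of each gene in the 6 naïve libraries by complex, as mean TPM on a log axis with the SD as error bar, with the highest and lowest gene of each group named and 3 genes under 1 TPM left out. Atp5b stands above all others at 215 TPM, and the assembly factors of complex I lie between 1.84 and 5.27 TPM.

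For each library, the median over the 91 genes of the log2 CPM relative to the naïve mean was taken, with 0.5 added to each CPM. It ranged from -0.25 in naïve replicate 5 to 0.22 in naïve replicate 2, although both came from untreated mice. In day 1 injured libraries it was 0.02, -0.28 and 0.12, and in day 1 contralateral libraries 0.01, 0.05 and -0.12. In day 7 injured libraries it was 0.05, -0.07 and -0.13. In day 7 contralateral libraries it was 0.35, 0.02 and -0.04. Apart from day 7 contralateral replicate 1, every library lay within the range of the naïve libraries or, for day 1 injured replicate 2, just below it. In naïve replicate 5, the medians of complex I core, II, III, IV and V were -0.27, -0.31, -0.30, -0.23 and -0.28, and in naïve replicate 2 they were 0.19, 0.28, 0.26, 0.27 and 0.21. The assembly factors of complex I did not share this order, with 0.06 in naïve replicate 2 and their highest naïve value, 0.10, in replicate 6, and Atp5s was highest in replicate 1. The summed skeletal muscle markers were at 4213 CPM in naïve replicate 5 and 4656 CPM in day 1 injured replicate 2, the libraries with the lowest medians, and at 11751 CPM in naïve replicate 2. Naïve replicate 3 and day 1 contralateral replicate 1 had higher sums, 13954 and 12083 CPM, with medians of -0.04 and 0.01. The sum was lowest, 3415 CPM, in day 7 injured replicate 2, where the median was -0.07. Their part in the spread of the genes was not tested.

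**Figure D2:**
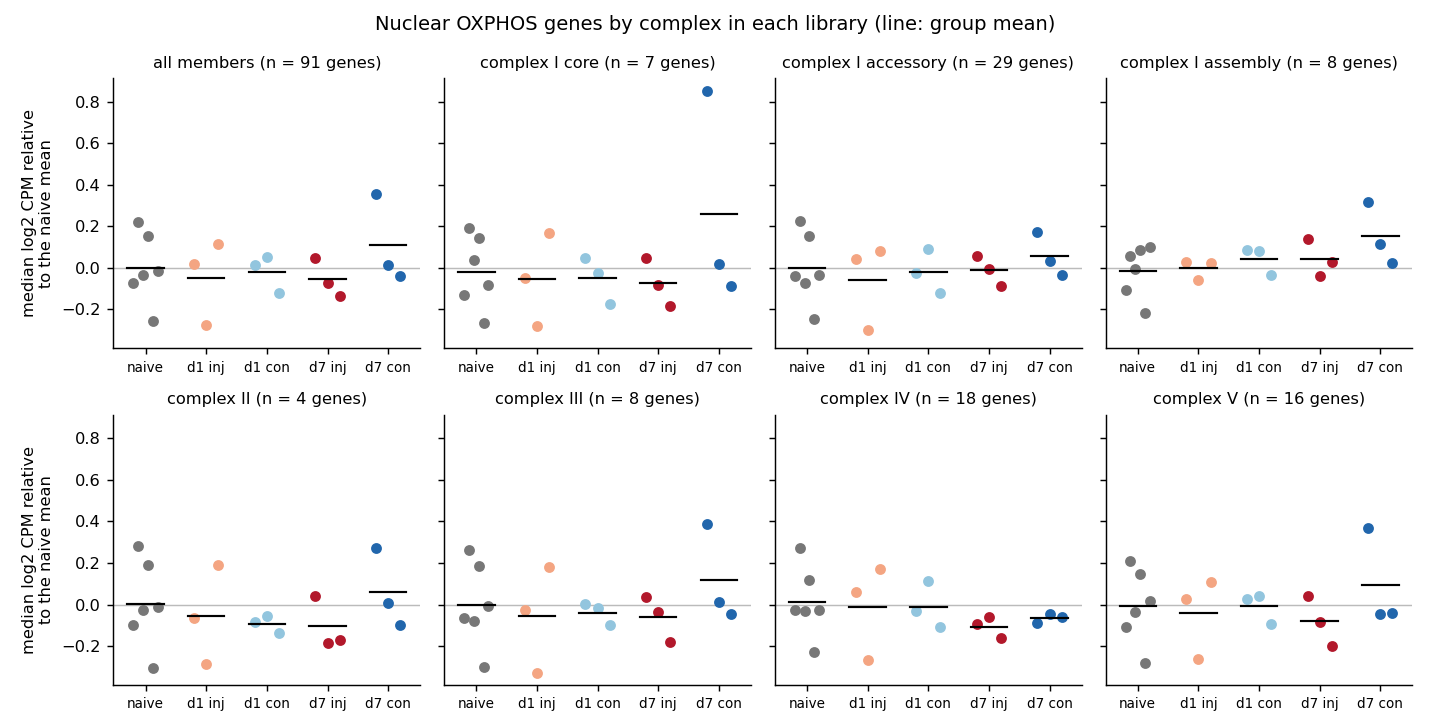
Median over the genes of each complex of the log2 CPM relative to the naïve mean, one point per library and a line at the group mean. Day 7 injured libraries overlap naïve libraries in every panel, and day 7 contralateral replicate 1 is the highest point for all genes (0.35) and for complex I core (0.85).

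The comparison of day 7 injured with naïve libraries asks what the injury changed once joint damage had begun. Most nuclear genes of oxidative phosphorylation did not pass the test in a tissue where many others did. Called genes had a false discovery rate (FDR) of at most 0.05 and a change of at least 1.5-fold. Of the 91 genes, 2 were called higher, where 10.4% of all 21129 genes tested were, and 0 were called lower, where 6.11% were. Both, Ndufa4l2 and Cox4i2, were grouped here with complex IV. By the FDR alone, 3 genes were higher (18.7% of all genes) and 0 lower (11% of all genes), and 9 of the 91 had an unadjusted p under 0.05 (8679 of all 21129 genes). The third gene was Cox6a1.

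The median log2 fold change of the 91 genes was -0.03, beside -0.04 for all genes tested, and 40 were above 0. For 77 of the 91, the 95% interval of the fold change (normal, from the SE) lay inside 1.5-fold in both directions. The same held for 8172 of the 21129 genes. Such intervals are wider for genes with few counts, and the sets were not matched by level. A normal interval is also somewhat narrower than one from the test. All 7 core subunits of complex I, 28 of its 29 accessory subunits, all 4 genes of complex II and all 8 of complex III were among those 77, but only 9 of the 18 tested genes of complex IV. The 2 groups did not overlap for 5 genes. Injured values were the higher for 4 of them (17.4% of all genes), namely Cox4i2, Cox6a1, Ndufa1 and Ndufa4l2, and the lower for 1 (10.8% of all genes), the complex I assembly factor Ndufaf6.

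No gene of complexes I and II passed the test. In complex I core, log2 fold changes lay between -0.21 for Ndufs7 and 0.16 for Ndufs3, both subunits of the peripheral arm. Ndufv2 was at 59.8, 64.8 and 60.4 CPM in day 7 injured libraries and between 49.2 and 70.9 CPM in naïve libraries, with a median of 63.7. Its groups overlapped, and its log2 fold change was 0.00 ± 0.12 (SE). Among accessory subunits the extremes were Ndufa6 at -0.25 ± 0.12 (FDR = 0.148) and Ndufa5 at 0.34 ± 0.21 (FDR = 0.246). The assembly factors ranged from -0.21 for Ndufaf6 to 0.26 for Ndufaf2, of whose 31-base words 65.1% also occur in the long non-coding RNA B230220B15Rik, so that its counts are uncertain. The most abundant assembly factor, Ndufaf7, was at 0.18 ± 0.11. In complex II, Sdha was at 168, 148 and 141 CPM in injured libraries and between 139 and 201 CPM in naïve libraries, with a log2 fold change of -0.16 ± 0.12 (FDR = 0.346), and Sdhc, which anchors the complex in the membrane, was at 0.02 ± 0.13.

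No gene of complexes III and V passed it either. In complex III, Uqcr11 was lowest at -0.20 ± 0.14 and Uqcrh highest at 0.07 ± 0.15. In complex V, Atp5b was at 630, 556 and 542 CPM in day 7 injured libraries. Its naïve libraries lay between 515 and 728 CPM, so that the groups overlapped, with a log2 fold change of -0.11 ± 0.11 (FDR = 0.463). The extremes of the complex were Atp5e, the epsilon subunit, at 0.29 ± 0.13 (FDR = 0.103) and Atp5g2, at -0.44 ± 0.25 (FDR = 0.205). Atp5g1, Atp5g2 and Atp5g3 encode the same c subunit of the rotor, and 5 pseudogenes share 31-base words with Atp5g2. Atp5g1 was at -0.31 ± 0.16 and Atp5g3 at -0.06 ± 0.14. Atp5g1 made up 40.7 ± 3.78% (SD, n = 6) of the summed TPM of the 3 genes in naïve libraries and 36.9 ± 2.71% (n = 3) at day 7 after injury, with overlapping groups. Atp5s, a coupling factor of complex V, was at -0.21 ± 0.15.

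**Figure D3:**
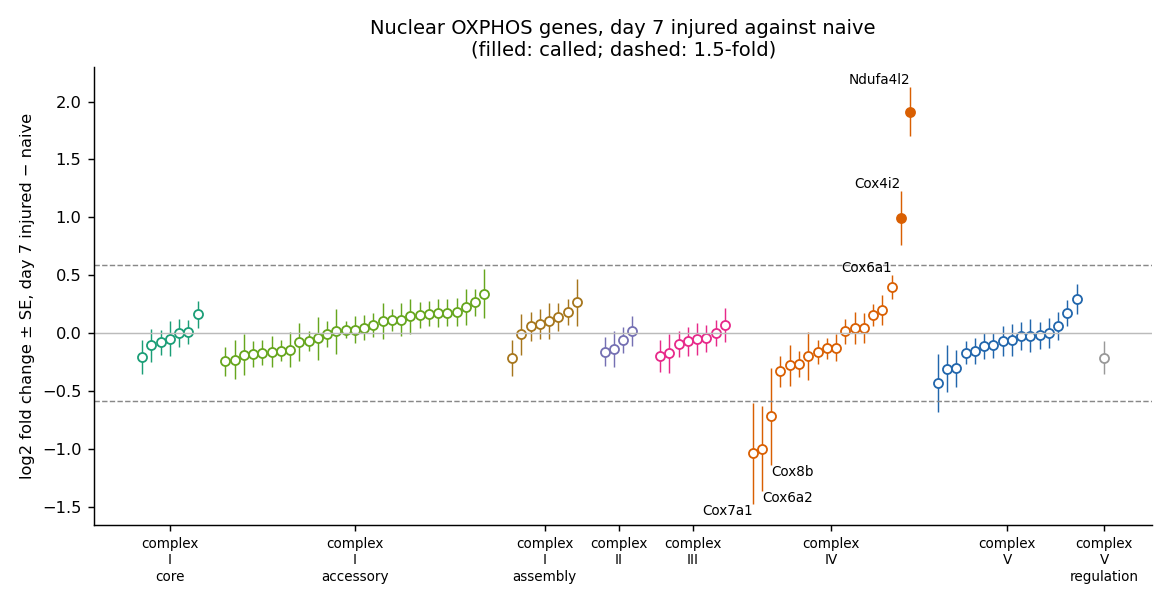
Log2 fold change of each of the 91 genes between day 7 injured and naïve libraries with its SE, ordered within each complex, filled where called and with dashed lines at 1.5-fold. All genes outside complex IV lie within the dashed lines, while Ndufa4l2 (1.91) and Cox4i2 (1.00) lie above and Cox7a1, Cox6a2 and Cox8b lie below without being called.

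Both called genes were grouped here with complex IV. Ndufa4l2 is the paralogue of Ndufa4, a subunit now assigned to complex IV, and was counted with it. Ndufa4l2 is known as a gene induced by hypoxia-inducible factor. It lies on chromosome 10 (GRCm38, 127514967 to 127517154, plus strand). It was at 33.4, 24.6 and 26.4 CPM in day 7 injured libraries. Naïve libraries lay between 5.58 and 10.6 CPM with a median of 6.94, so that every injured library was at more than the highest naïve value. The log2 fold change was 1.91 ± 0.21, or 3.76-fold (edgeR, FDR = 6.70e-06). Day 1 injured libraries, at 8.37, 5.21 and 10.3 CPM, and day 1 contralateral libraries, at 5.73, 5.34 and 4.86 CPM, were within or near the naïve range. In contrast, Ndufa4 was at 46.9, 47.0 and 42.5 CPM at day 7 after injury and at 40.5 to 58.2 CPM in naïve libraries, with a log2 fold change of -0.13 ± 0.12. Only 0.268% of the 31-base words of Ndufa4l2 also occur in Ndufa4. Per length, Ndufa4l2 made up 7.06 ± 1.63% of the sum of both genes in naïve libraries (n = 6) and 23.2 ± 3.71% at day 7 after injury (n = 3). In day 7 contralateral replicate 1 the share was 20.5%, above the 19.5% of day 7 injured replicate 2, while the other contralateral libraries were at 5.33% and 5.47%.

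Cox4i2 encodes the form of subunit 4 that is known from lung and oxygen-sensing cells. It lies on chromosome 2 (152754173 to 152765037, plus strand) and shared no 31-base word with another gene. Its level was low, at 3.22, 3.48 and 3.52 CPM in day 7 injured libraries and between 1.28 and 2.17 CPM in naïve libraries, with a median of 1.72. The groups did not overlap, with a log2 fold change of 1.00 ± 0.23 (FDR = 0.00469). Day 1 injured libraries were at 2.23, 0.922 and 1.91 CPM. The common form, Cox4i1, had overlapping groups, with 140, 121 and 95.2 CPM after injury against 94.9 to 149 CPM, and a log2 fold change of 0.04 ± 0.14. Cox4i2 made up 1.48 ± 0.234% of both forms in naïve libraries and 2.93 ± 0.653% at day 7 after injury.

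Transcripts of Ndufa4l2 and Cox4i2 are also known from pericytes, the contractile cells around capillaries. Of the 10 endothelial and pericyte markers, 6 were called higher at day 7 than in naïve libraries and 0 lower, where 10.4% and 6.11% of all genes were. Their sum was 943, 1025 and 1190 CPM in day 7 injured libraries and 544 to 699 CPM in naïve libraries. The most abundant, Rgs5, a pericyte gene, was at 277, 334 and 369 CPM against 94.8 to 198 CPM. None of the 10 was at or under 3 counts in every library. Among 11 markers of osteoblasts and osteocytes, 2 were called higher (Col1a1 and Ibsp) and 2 lower (Sost and Mepe). These counts, in both directions, stand beside the same 10.4% and 6.11% of all genes. Their sum, led by Col1a1, was 51938, 47899 and 55650 CPM against 9205 to 17697 CPM. Called markers of other cells, among them synovial fibroblasts and chondrocytes, are given in the last section. The part of any of these lists in the rise of the 2 genes was not tested.

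Cox6a1, the common form of subunit 6a of complex IV, was at 59.8, 60.6 and 52.6 CPM in day 7 injured libraries and between 37.3 and 52.5 CPM in naïve libraries. The groups were separate by a narrow margin, and the log2 fold change was 0.40 ± 0.10, or 1.32-fold (FDR = 0.00958), below the fold limit. With other libraries in the fit the log2 fold change was 0.38 ± 0.17, which did not pass the FDR (FDR = 0.108). Cox6b1 was at 0.20 ± 0.13, Cox7a2 at -0.16 ± 0.10, Cox7a2l at 0.16 ± 0.10, Cox7b at -0.33 ± 0.13 and Cox8a at -0.13 ± 0.09, none of which passed the test.

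The forms of complex IV that are typical of heart and skeletal muscle had lower values after injury without being called. Cox6a2, the partner of Cox6a1, was at 8.13, 5.26 and 5.69 CPM in day 7 injured libraries and between 5.85 and 18.8 CPM in naïve libraries, with a median of 13.2. The groups overlapped because of naïve replicate 5, and the log2 fold change was -0.998 ± 0.37 (FDR = 0.0521). This value was at the edge of the threshold, and Cox6a2 was called lower in 5 of the 16 alternative analyses. Cox7a1, the partner of Cox7a2, was at 5.49, 4.82 and 5.97 CPM against 3.78 to 16.8 CPM (log2 fold change -1.04 ± 0.44, FDR = 0.0858). Cox8b, the partner of Cox8a, was at 8.49, 4.31 and 6.52 CPM against 4.89 to 15.6 CPM (-0.72 ± 0.42, FDR = 0.209). Cox6b2, a testis form, was at -0.20 ± 0.21.

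Skeletal muscle markers varied in the same libraries. Of 16 markers, 0 were called higher and 1, Myh2, was called lower at day 7 than in naïve libraries, where 10.4% and 6.11% of all genes were. All 16 had a log2 fold change below 0, with a median of -0.76. Their sum was 7255, 3415 and 5948 CPM in day 7 injured libraries, 10653, 4656 and 16802 CPM in day 1 injured, 12083, 8432 and 6064 CPM in day 1 contralateral and 6896, 6183 and 7031 CPM in day 7 contralateral libraries. In naïve libraries it ranged from 4213 CPM in replicate 5 to 13954 CPM in replicate 3, with a median of 9568. The summed level of Cox6a2, Cox7a1 and Cox8b was lowest in day 7 injured replicate 2 and naïve replicate 5, the same libraries in which the marker sum was lowest, and both sums were highest in day 1 injured replicate 3. Per 1000 CPM of the marker sum, the 3 forms amounted to 3.44 ± 0.669 CPM in day 7 injured libraries (SD, n = 3) and 3.85 ± 0.725 CPM in naïve libraries (n = 6), and the groups overlapped. Muscle RNA and expression of these forms in cartilage cells cannot be told apart in these libraries.

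**Figure D4:**
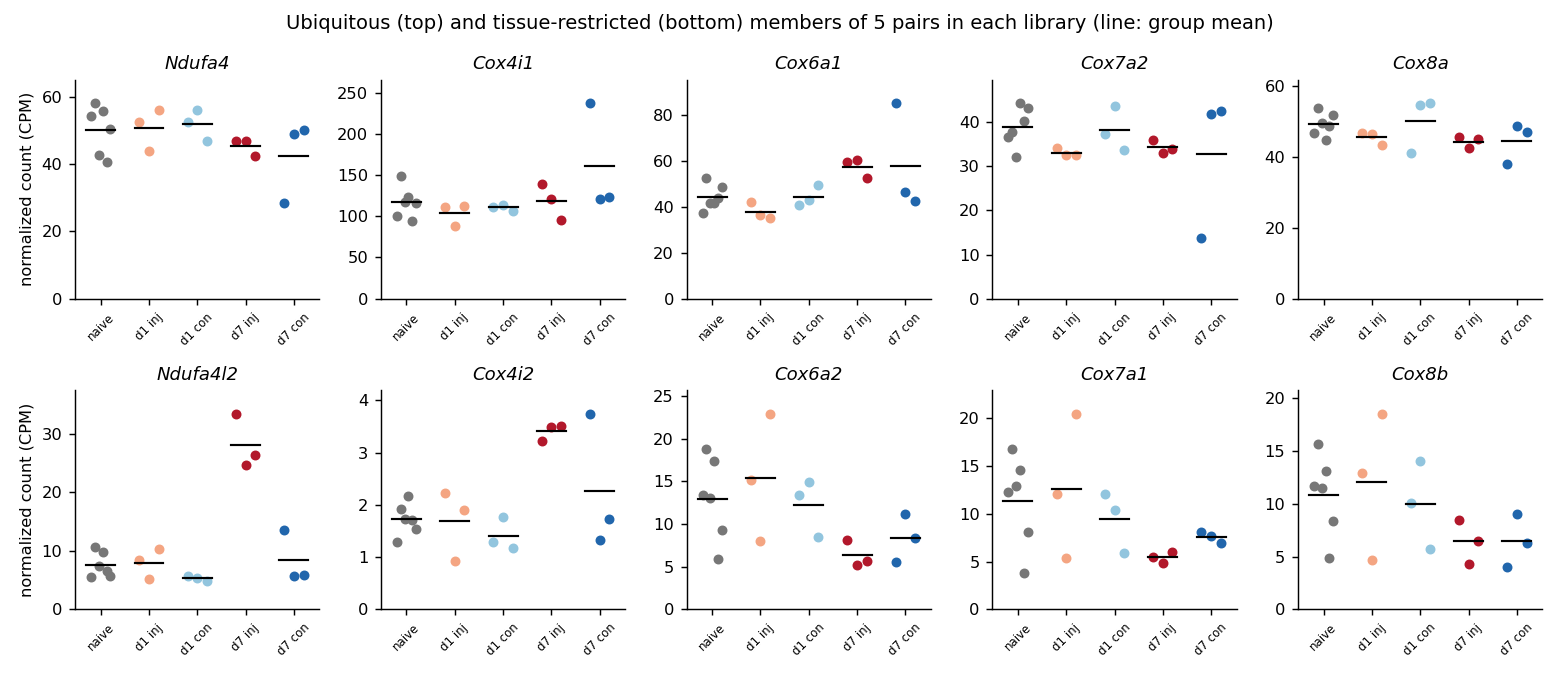
Normalized counts (CPM) of 5 common genes (top) and their tissue-restricted partners (bottom), one point per library and a line at the group mean. The 3 day 7 injured libraries lie above all naïve libraries for Ndufa4l2 (24.6 to 33.4 CPM) and Cox4i2 (3.22 to 3.52 CPM), and overlap them for Cox6a2, Cox7a1 and Cox8b.

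The share of a form within its set does not depend on the library scaling. For the 6 pairs with a restricted form and the share of Atp5g1 among the 3 genes of the c subunit, day 7 injured and naïve libraries were compared by a two-sided exact permutation test, for which 0.0238 is the smallest p with 3 and 6 libraries. Ndufa4l2 and Cox4i2 reached this p (exact permutation test, p = 0.0238, adjusted over the 7 shares p = 0.0833), with all 3 injured libraries above all naïve ones. The share of Cox6a2 was 18.4 ± 5.95% in naïve and 7.92 ± 1.65% in day 7 injured libraries (exact permutation test, p = 0.0476, adjusted p = 0.111), with 2 of 3 injured libraries below all naïve ones. No share passed after adjustment, which with this smallest p would have needed at least 4 of the 7 shares to reach it.

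**Figure D5:**
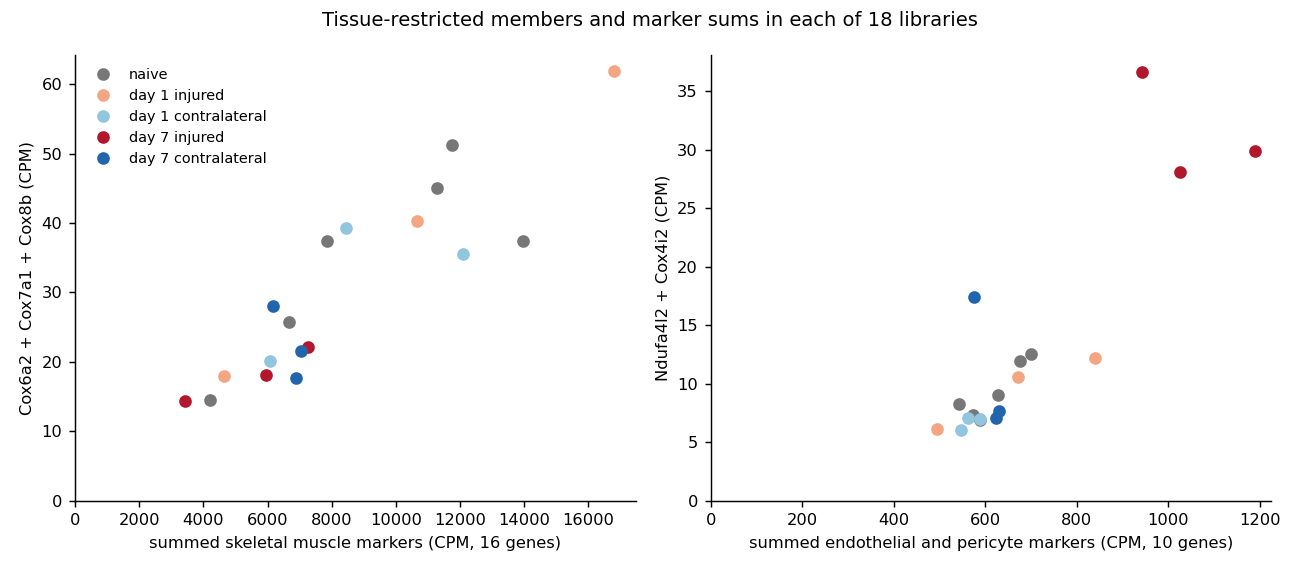
Each of the 18 libraries by the sum of 16 skeletal muscle markers and the sum of Cox6a2, Cox7a1 and Cox8b (left), and by the sum of 10 endothelial and pericyte markers and the sum of Ndufa4l2 and Cox4i2 (right), all in CPM. On the left the groups mix along one band from 3415 to 16802 CPM of markers, and on the right the 3 day 7 injured libraries lie apart at 943 to 1190 CPM of markers.

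Day 7 injured knees were next compared with the uninjured knees of the same time point. Of the 91 genes, 1 was called higher (9.33% of all 21262 genes) and 0 lower (3.23% of all genes). Ndufa4l2 was again the called gene. Day 7 contralateral libraries were at 13.6, 5.75 and 5.91 CPM, all below the injured libraries, and the log2 fold change was 1.77 ± 0.32 (FDR = 0.000761). Without replicate 1 it was 2.29 ± 0.30 (FDR = 5.11e-05). Cox4i2 was at 3.74, 1.34 and 1.72 CPM in the contralateral libraries, and its groups overlapped (0.64 ± 0.34, FDR = 0.214). Without replicate 1 it was called as well (1.17 ± 0.31, FDR = 0.0152). The median over the 91 genes was -0.15 with this library and -0.02 without it, beside -0.05 for all genes tested in the full comparison. Without contralateral replicate 3, 8 of the 91 genes were called lower, as were 1058 of all 21823 genes tested, among them the complex I core subunits Ndufs7 and Ndufv1 and the complex III gene Uqcrh. Without replicate 2, 3 were called lower, Ndufs7, Ndufv1 and the complex I assembly factor Ndufaf8, as were 965 of all 21814 genes, a share no smaller than that of the 91. Both of these fits kept replicate 1, in which the 8 genes lay 0.97 to 1.61 above the naïve mean on the log2 scale. Without replicate 1, 0 of the 91 genes were called lower, as in the full comparison. Ndufs7 was then at -0.13 (FDR = 0.705) and Uqcrh at -0.08 (FDR = 0.821).

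At day 1 edgeR called no gene of oxidative phosphorylation and none of the other genes tested. In day 1 injured against naïve libraries 0 of 91 were called (0% of all genes), with a lowest FDR of 0.987 and log2 fold changes between -0.27 and 0.25. Of the 91, 5 had an unadjusted p under 0.05, as had 959 of all 21129 genes. In day 1 injured against day 1 contralateral libraries 0 were called (0% of all genes), with a range of -0.29 to 0.58 and 2 unadjusted p under 0.05 (1383 of all genes). Without day 1 injured replicate 2 or 3, the counts over all genes were 1595 or 511 against naïve and 2609 or 530 against contralateral libraries, with 1 or 4 and 3 or 0 among the 91. Day 1 contralateral against naïve libraries also gave 0 (0% of all genes), with 1 unadjusted p under 0.05 (554 of all genes). Day 7 contralateral against naïve libraries gave 0 (0% of all genes), with 19 unadjusted p under 0.05 (3220 of all 21262 genes) and a median of 0.10. Without replicate 1 these were 2 (1201 of all 21808 genes) and -0.04. Without replicate 2 of that group they were 28 (4354 of all 21814 genes) and 0.17. Leaving out its replicate 3 gave 32 (4487 of all 21823 genes) and 0.21. With limma-voom the count was 7 (2422 of all 21262 genes), and with other libraries in the fit 9 (2082 of all 19692 genes). The median was 0.06 without naïve replicate 5. DESeq2 and limma-voom called none of the 91 genes in these 4 comparisons either. Among all genes, limma-voom called 0, and DESeq2 called 15 in day 1 injured, 2 in day 1 contralateral and 8 in day 7 contralateral against naïve libraries.

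Day 7 injured libraries were then compared with day 1 injured libraries, which shows the course after injury. Of the 91 genes, 3 were called higher (9.04% of all genes) and 1 lower (6.38% of all genes). By the FDR alone, 5 were higher (16.2% of all genes) and 2 lower (8.2% of all genes). These libraries also serve in the comparisons above, so the counts are not independent of them. Ndufa4l2 rose by 1.84 ± 0.26 on the log2 scale (FDR = 0.000136) and Cox4i2 by 1.04 ± 0.27 (FDR = 0.0132). Cox6a1 was at 42.0, 36.6 and 35.2 CPM at day 1 and rose by 0.62 ± 0.12 (FDR = 0.00198), just past the fold limit. It was under that limit, and so not called, with totals from nuclear protein-coding genes (0.54) and without day 1 injured replicate 2 (0.58) or 3 (0.56) or day 7 injured replicate 2 (0.58). Cox6a2 was at 15.2, 7.98 and 22.9 CPM at day 1 and fell by 1.24 on the log2 scale (SE 0.41, FDR = 0.0376). Without day 1 injured replicate 3, the library with the highest sum of muscle markers, the log2 fold change was -0.85 (FDR = 0.164), and the call was also lost without day 1 injured replicate 1 (-1.27, FDR = 0.0678) or day 7 injured replicate 2 (-1.13, FDR = 0.118) or 3 (-1.16, FDR = 0.111). Among 16 skeletal muscle markers, 1, Acta1, was called lower in the same comparison (6.38% of all genes), and the median was -0.94. By the FDR alone, Atp5e (0.46 ± 0.15) and Cox7a2l (0.40 ± 0.11) were also higher and Cox7c (-0.42 ± 0.13) lower. Atp5e did not pass without day 1 injured replicate 2 (FDR = 0.155), nor Cox7a2l with other libraries in the fit (FDR = 0.237).

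Whether the injury effect against the contralateral knee differed between day 7 and day 1 was tested directly. Of the 91 genes, 0 were called higher (3.53% of all genes) and 0 lower (0.245% of all genes), with 4 unadjusted p under 0.05 (3458 of all 21262 genes) and a median of -0.15. Without day 7 contralateral replicate 1 these were 5 (3951 of all 21808 genes) and 0.04. Without day 1 injured replicate 2 they were 9 (3478 of all 21704 genes) and -0.25. Leaving out day 7 contralateral replicate 3 gave 9 (3835 of all 21823 genes) and -0.24. Without day 1 injured replicate 3 the median was -0.02, with 3 such p (3191 of all 21746 genes). The count was 2 without day 1 contralateral replicate 1 or 3 or day 7 injured replicate 2 (3321, 2784 and 3061 of all genes). DESeq2 and limma-voom also called none of the 91, with 979 and 780 higher and 160 and 40 lower among all genes. Ndufa4l2 came closest, with a difference of 1.18 ± 0.45 (FDR = 0.176), and was called without day 7 contralateral replicate 1 (1.71, FDR = 0.0143).

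Other genes of energy metabolism were examined in day 7 injured against naïve libraries, where 10.4% of all genes were called higher and 6.11% lower, or 18.7% and 11% by the FDR alone. The 13 mitochondrially encoded subunits had no called gene, with log2 fold changes between -0.48 and -0.01, a median of -0.31 and a lowest FDR of 0.117. mt-Co1, the catalytic subunit of complex IV, was at 3989 ± 969 CPM (n = 3) at day 7 after injury and 5412 ± 1094 CPM (n = 6) in naïve libraries. Cyc1 and Cycs, the cytochromes of the chain, lay between -0.20 and -0.03. Of 38 assembly factors with other symbols, 0 were called, and Ttc19 (0.37 ± 0.09, FDR = 0.00737) and Surf1 (0.26 ± 0.07, FDR = 0.0157), which serve complexes III and IV, passed the FDR alone. Of 18 genes of the tricarboxylic acid cycle and pyruvate dehydrogenase, 0 were called, and Idh3g was lower by the FDR alone (-0.26 ± 0.09, FDR = 0.0390). Of 16 regulators of mitochondrial biogenesis, 0 were called, and by the FDR alone Gabpa, a subunit of GABP, was higher (0.21 ± 0.07, FDR = 0.0492) and Tfb1m lower (-0.39 ± 0.13, FDR = 0.0346).

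Of 19 glycolysis genes tested, 1 was called higher and 0 lower, where 10.4% and 6.11% of all genes were, with a median of 0.10. It was Slc2a1, the glucose transporter GLUT1, which was at 23.5, 21.9 and 24.5 CPM in day 7 injured libraries and 12.9 to 19.5 CPM in naïve libraries. All injured libraries were above all naïve ones, with a log2 fold change of 0.62 ± 0.19 (FDR = 0.0222). By the FDR alone, Pfkp, a phosphofructokinase, was higher (0.45 ± 0.10, FDR = 0.00301), and so was Pdk1, the kinase that inhibits pyruvate dehydrogenase (0.30 ± 0.08, FDR = 0.0113). Slc2a3, another glucose transporter, was lower (-0.48 ± 0.10, FDR = 0.00278).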

How the data were processed

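Total RNA was sequenced by the authors from 18 libraries after removal of ribosomal RNA. After trimming, the authors quantified reads with Kallisto against mouse transcripts (GRCm38) and deposited, per transcript, estimated counts, which need not be whole, and TPM. The processing notes in the labels name GRCh38, which the mouse identifiers contradict. The authors removed 1 ACL library for low mapping without naming it.

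Transcripts were matched without version to GENCODE vM21 (GRCm38), for 135107 of 137436 (98.3%), and expected counts were added up by gene, then rounded. Groups were compared with edgeR 4.0.16 in R 4.3.3 (quasi-likelihood) using 1 mean per group, TMM normalization, edgeR's filter on low counts and Benjamini-Hochberg adjustment over all genes tested. The SE is the log2 fold change divided by the root of F. Where day 7 contralateral libraries were not compared they were left out, giving 15 libraries (21129 genes) in place of 18 (21262 genes). The study's correlation between knees of the same mice was not modelled, because the labels do not pair knees. TPM was used for levels between genes and for shares within a library. Nuclear protein-coding genes held between 12.2% and 34.8% of the TPM of a library. Intervals of fold changes come from the SE of the fit and include the spread between libraries, while the floor of 3 counts covers counting error only.

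Day 7 contralateral replicate 1 was kept. Motif sites on chromosome 18 were not considered. The genes and all lists were chosen with earlier results of these data known. Named were genes called in any comparison, the extremes and the most abundant gene of each complex, the isoform pairs, and up to 2 called genes per pathway list and direction. Cox7c, Ndufa1, Ndufaf8, Ttc19, Surf1, Idh3g, Gabpa, Tfb1m, Pfkp, Pdk1, Slc2a3, the markers, the genes named for day 7 contralateral replicate 1 and the printed motif sites were named after their values were seen. Alternatives were DESeq2 1.42.0 as test and for size factors, limma-voom 3.58.1, totals from nuclear protein-coding genes, no filter on low counts, an offset for transcript length, other libraries in the fit, other thresholds and leaving out each library. The test was tried on simulated counts. The permutation tests used SciPy. Motifs were searched on both strands, and shared sequence was counted in 31-base words of GENCODE transcripts.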

Additional observations from a re-analysis of the deposited data

Results flagged for a closer look

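Of 41 values checked for a sample far from the rest in the naïve group of 6 libraries (Dixon's test at the 95% level, which flags about 1 in 20 groups by chance), 1 stood out. Ndufaf2, an assembly factor of complex I, was at 1.19 CPM in naïve replicate 5 and at 1.59 to 1.83 CPM in the other 5, with a ratio of gap to range of 0.626, barely over the critical value.

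Among 13 loci whose symbols match the rule but which are not annotated as protein-coding, 2 had more than 3 counts in all 18 libraries. Ndufb4c, a processed pseudogene, had a mean of 16.2 ± 2.67 CPM (SD, n = 6) in naïve libraries and 14.9 ± 1.58 CPM (n = 3) at day 7 after injury, and 19.1% of the 31-base words of Ndufb4 also occur in it. Ndufb1-ps, annotated as a long non-coding RNA at a bidirectional promoter, had a mean of 15.1 ± 2.62 CPM in naïve libraries and 12.0 ± 1.16 CPM at day 7 after injury. The counts of both were not used in the comparisons.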

How the results depend on the processing

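Ndufa4l2 and Cox4i2 were called at day 7 against naïve libraries in all 16 refits, with log2 fold changes of 1.77 to 2.02 and 0.93 to 1.08. In that comparison the number of genes called lower, 0, was 1 with totals from nuclear protein-coding genes, with no filter on low counts and with DESeq2 (all genes 1720, 1154 and 1309, beside 1291), and 0 to 2 when single libraries were left out (all genes 797 to 1425), Cox6a2 and, without naïve replicate 5, Cox7a1 being the genes. In day 7 against day 1 injured libraries, the number called higher, 3, was 5 without the fold limit. The number called lower, 1, was 0 with limma-voom (all genes 1067, beside 1347) and at an FDR of at most 0.01, 2 without the fold limit, and 0 to 3 with single libraries left out (all genes 849 to 1173). It was 0 without day 1 injured replicate 1 or 3 or day 7 injured replicate 2 or 3, and 3 without day 1 injured replicate 2. Against day 7 contralateral libraries, leaving out single libraries gave 1 to 2 genes higher and 0 to 8 lower (all genes 1508 to 2030 and 279 to 1058), and for the difference of injury effects 0 to 1 higher, 1 being without day 7 contralateral replicate 1 (all genes 892, beside 750). No other count of called genes among the 91 moved by over 1.5 times. On the scale of deposited TPM, the median of the genes against naïve libraries was 0.47 in day 1 injured, 0.26 in day 1 contralateral and -0.33 in day 7 injured libraries, where the median of all genes tested was 0.41, 0.22 and -0.21. With TMM-normalized CPM it was -0.047, -0.018 and -0.052. No paired analysis was possible because the labels give no numbers that pair libraries. At these depths, Cox7b2 and Cox8c could not be compared.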

Other observations

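Markers of the other cells that the cartilage caps could hold were compared between day 7 injured and naïve libraries with the same test (edgeR, FDR of at most 0.05 and at least 1.5-fold), by which 10.4% of all genes were called higher and 6.11% lower. For lists of this length, 1 called gene in a direction is near these shares. Of 14 chondrocyte markers, 4 were called higher, namely Acan, Comp, Col11a1 and Sox9, and 1, Chad, was called lower. Of 10 synovial fibroblast markers 5 were higher and 0 lower, with Dpt at 2.35 and Thy1 at 1.91 on the log2 scale. Of 10 adipocyte markers 0 were higher and 5 lower, with a median of -1.27. Of 11 erythroid markers 0 were higher and 5 lower, with a median of -0.60. Of 12 neutrophil and marrow myeloid markers 2 were lower, S100a8 and S100a9, and of 10 B-lineage markers 1, Ms4a1. Of 9 osteoclast markers 1 was higher, Ctsk, the collagen-degrading cathepsin K, at 1.25. None of 10 macrophage and 12 proliferation markers was called, although 6 proliferation markers were lower by the FDR alone. The part of these lists in the values of the oxidative phosphorylation genes was not tested.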
